A study of Mus musculus with 6 samples.

Results

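The genes examined here are 10 imprinted or imprinting-linked genes of mouse chromosome 6: Calcr, Tfpi2, Sgce, Peg10, Ppp1r9a and Asb4 in the region around Peg10, Mest, Copg2 and Klf14 in the region around Mest, and Nap1l5. They were chosen by name, and every probe set that the platform annotation assigned to exactly 1 of them was taken, which gave 16 of the 45101 probe sets on the array, or of 34958 with a single gene; 18194 genes are named by such probe sets. Expression was measured on 6 Affymetrix mouse arrays, 3 with RNA from wild-type embryonic stem cells of the line E14K and 3 with RNA from embryonic stem cells in which Gsk-3a and Gsk-3b are both knocked out (Gsk-3a-/-; Gsk-3b-/-, called DKO). These genes encode the 2 forms of glycogen synthase kinase-3, which PI3K signalling inhibits and which targets beta-catenin for breakdown when Wnt is absent. Cells of both genotypes were grown feeder-free on gelatin in 15% fetal bovine serum, with leukaemia inhibitory factor at 1000 units/ml, and were collected with trypsin, and 25 ng of total RNA per sample was amplified. The labels do not say how many clones the DKO cells come from, what their parental line is or whether replicates were separate cultures, so p-values here reflect the spread between these samples alone, which may be technical, and line differences cannot be told apart from the loss of Gsk-3. The series title names PI3K signalling through Gsk-3 and DNA methylation of imprinted loci, and the comparison asks how the imprinted genes of chromosome 6 differ between the genotypes.

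An imprinted gene is expressed mainly from the copy inherited from 1 parent, under the control of a region whose DNA methylation was set in that parent's germ line. Mest, Peg10, Sgce and Nap1l5 are known as paternally expressed genes whose start regions carry methylation on the maternal copy, while Calcr, Asb4, Klf14, Tfpi2 and Ppp1r9a are known for expression from, or biased to, the maternal copy in some tissues. The arrays measure the summed RNA of both copies and do not tell the alleles apart. Because each array reads a culture of many cells, fewer cells expressing a gene and less of its RNA per cell cannot be told apart.

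The promoter windows of the genes that differed most are printed here because methylated CpG dinucleotides mark an imprint, as at the start regions named above. ZFP57, a zinc-finger protein that keeps imprints in embryonic stem cells, is known to bind the methylated hexamer TGCCGC. Calcr is not among the genes named above for a methylated start, and its window is printed only because its RNA differed. The RefSeq table (GRCm38.p6) held windows of 300 bases, 250 before to 50 after a start site, for 7 of the 10 genes, with 14 windows in all. Peg10, Sgce and Klf14 had no entry. Sequences run 5′ to 3′ on the strand of the gene, and capitals mark TGCCGC or its reverse complement GCGGCA.
Mest, chr6:30737800-30738099 (+): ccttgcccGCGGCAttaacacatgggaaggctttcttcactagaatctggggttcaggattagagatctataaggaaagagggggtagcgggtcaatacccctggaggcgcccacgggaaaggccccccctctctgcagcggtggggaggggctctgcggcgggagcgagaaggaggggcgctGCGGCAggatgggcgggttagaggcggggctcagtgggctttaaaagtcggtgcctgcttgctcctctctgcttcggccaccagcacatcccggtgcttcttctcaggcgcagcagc
Nap1l5, chr6:58907077-58907376 (-): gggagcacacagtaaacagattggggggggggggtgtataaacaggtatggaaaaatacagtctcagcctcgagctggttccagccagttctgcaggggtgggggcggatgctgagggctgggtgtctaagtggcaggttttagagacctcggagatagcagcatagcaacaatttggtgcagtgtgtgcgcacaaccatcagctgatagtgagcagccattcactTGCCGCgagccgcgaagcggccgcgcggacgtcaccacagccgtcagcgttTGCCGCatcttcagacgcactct
Calcr, chr6:3763574-3763873 (-): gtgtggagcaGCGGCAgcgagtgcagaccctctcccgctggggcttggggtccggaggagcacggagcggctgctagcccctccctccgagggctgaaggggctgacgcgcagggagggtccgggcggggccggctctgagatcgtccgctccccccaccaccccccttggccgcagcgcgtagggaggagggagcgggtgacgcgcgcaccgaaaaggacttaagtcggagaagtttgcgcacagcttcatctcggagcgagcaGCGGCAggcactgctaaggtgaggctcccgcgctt
Mest, chr6:30733256-30733555 (+): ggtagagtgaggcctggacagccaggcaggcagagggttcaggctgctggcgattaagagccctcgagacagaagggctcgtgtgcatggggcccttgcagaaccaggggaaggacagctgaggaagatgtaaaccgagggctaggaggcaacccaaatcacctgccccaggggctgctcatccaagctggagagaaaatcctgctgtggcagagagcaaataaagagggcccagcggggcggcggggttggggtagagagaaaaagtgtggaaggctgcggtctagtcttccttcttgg
The downstream start of Mest held 17 CpG dinucleotides and 2 matches of TGCCGC, and its upstream start held 8 and 0. Nap1l5 also held 17 CpG and 2 matches, and the CpG-rich start of Calcr held 29 and 2. Of all 32851 windows of this length 11.6% held at least 1 match on either strand and 1.53% held at least 2, and the median window had 7 CpG. The hexamer itself holds a CpG, and these shares were not matched for CpG content. They do not show how rare 2 matches are among CpG-rich windows. Across the other windows of the genes, the Copg2 window held 1 match, a Mest window that starts 3 bases away from the printed one held the same matches, and those of Asb4, Ppp1r9a and Tfpi2 and the other start of Calcr held 0. The core of the Tcf/Lef motif, CTTTGA, was searched on both strands as well and was found in 0 of the 14 windows and in 16% of all windows. These matches describe the letters of the windows only, and neither methylation nor binding was measured here.

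**Figure D1:**
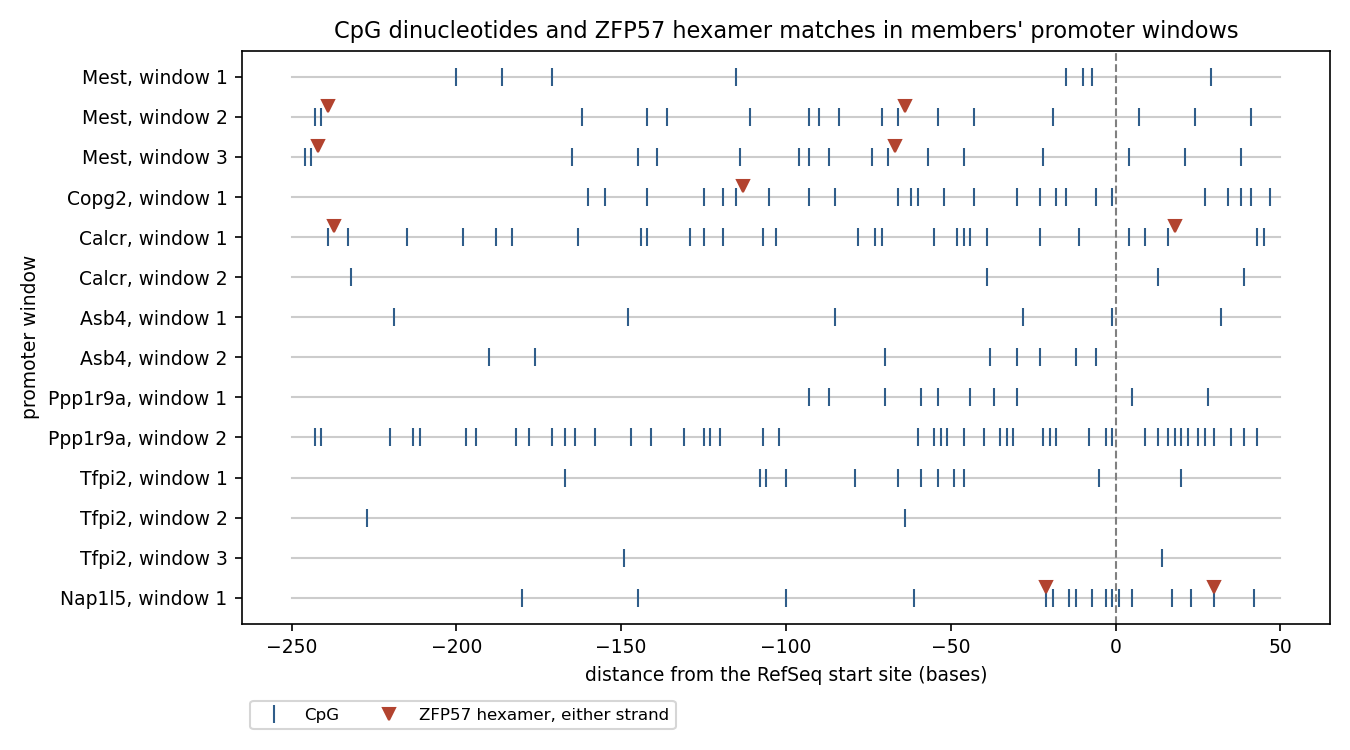
RefSeq promoter windows of 7 genes, 1 window a line, against distance from the start site in bases. Blue ticks mark CpG dinucleotides and red triangles mark the ZFP57 hexamer on either strand, with 2 triangles in windows 2 and 3 of Mest, window 1 of Calcr and the Nap1l5 window, and none in those of Asb4, Ppp1r9a or Tfpi2.

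Before the genes themselves, the arrays were compared. Their median intensities were 10 to 11 and their number limits the precision. Bacterial and phage spike-in probe sets averaged 1.64 to 1.85 on the log2 scale on the arrays of replicates 1 and 2 and 10.18 and 10.53 on those of replicate 3 in DKO and wild-type cells, so a fit with the replicate 3 arrays, 1 of each genotype, set apart as a block was run as well. The labels name no batch, and this split rests on the spike-in signal alone. Signal at the 3' over the 5' end of 3 control transcripts was 2.32, 2.44 and 1.83 log2 units in DKO and 2.30, 2.00 and 1.64 in wild-type cells, higher in DKO in each same-numbered pair, and its part in the results was not tested. The Gsk3a probe set read 145, 135 and 66 in DKO against 403, 238 and 239 in wild-type cells, with no overlap (limma, adjusted p = 0.0942, and 0.00646 blocking on replicate number), and the 5 probe sets of Gsk3b differed by -0.71 to -0.02 (adjusted p = 0.508 to 0.995); whether these probe sets lie in the deleted parts is not known here. All 10 embryonic stem cell markers were above the filter, and their summed intensity was 27090 to 28410 in DKO and 28287 to 30416 in wild-type cells.

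Of the 10 genes, Calcr was lower in DKO cells, and Mest (lower), Sgce and Nap1l5 (both higher) passed once the replicate number was a block, Mest also with replicate 3 set apart, while Peg10, Copg2 and Ppp1r9a passed in none of these fits. In all 3 same-numbered pairs 4 of the 10 tested probe sets were lower (Calcr, Mest and 2 of Ppp1r9a) and 3 were higher (Sgce, Nap1l5 and 1 of Ppp1r9a), where 22.4% of all tested probe sets were lower and 19.4% higher. A probe set was tested where it reached an intensity of 16 (log2 value 4) on at least 3 of the 6 arrays, and a call is an adjusted p under 0.05 by limma over all 20841 tested probe sets. Of the 16 probe sets 10 passed this filter, from 7 genes. By limma 1 of the 10 passed, that of Calcr, which was lower, and 4 had an unadjusted p under 0.05. Over all tested probe sets 3.24% passed the adjusted threshold, 1.31% higher and 1.93% lower, and 13% had an unadjusted p under 0.05. Arrays of the same number deviated together in both genotypes, and with the replicate number as a block 4 of the 10 passed, Calcr and Mest lower and Sgce and Nap1l5 higher, where 9.57% of all tested probe sets passed, 4.31% higher and 5.26% lower. With replicate 3 set apart as a block, Calcr and Mest passed, both lower, where 5.36% of all passed, 2.26% higher and 3.09% lower. The tested probe sets had a median absolute log2 difference of 0.50 against 0.25 over all tested probe sets. Calcr was tested only because of its wild-type arrays and Nap1l5 only because of its DKO arrays, so these counts and medians describe the genes and support nothing further.

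**Figure D2:**
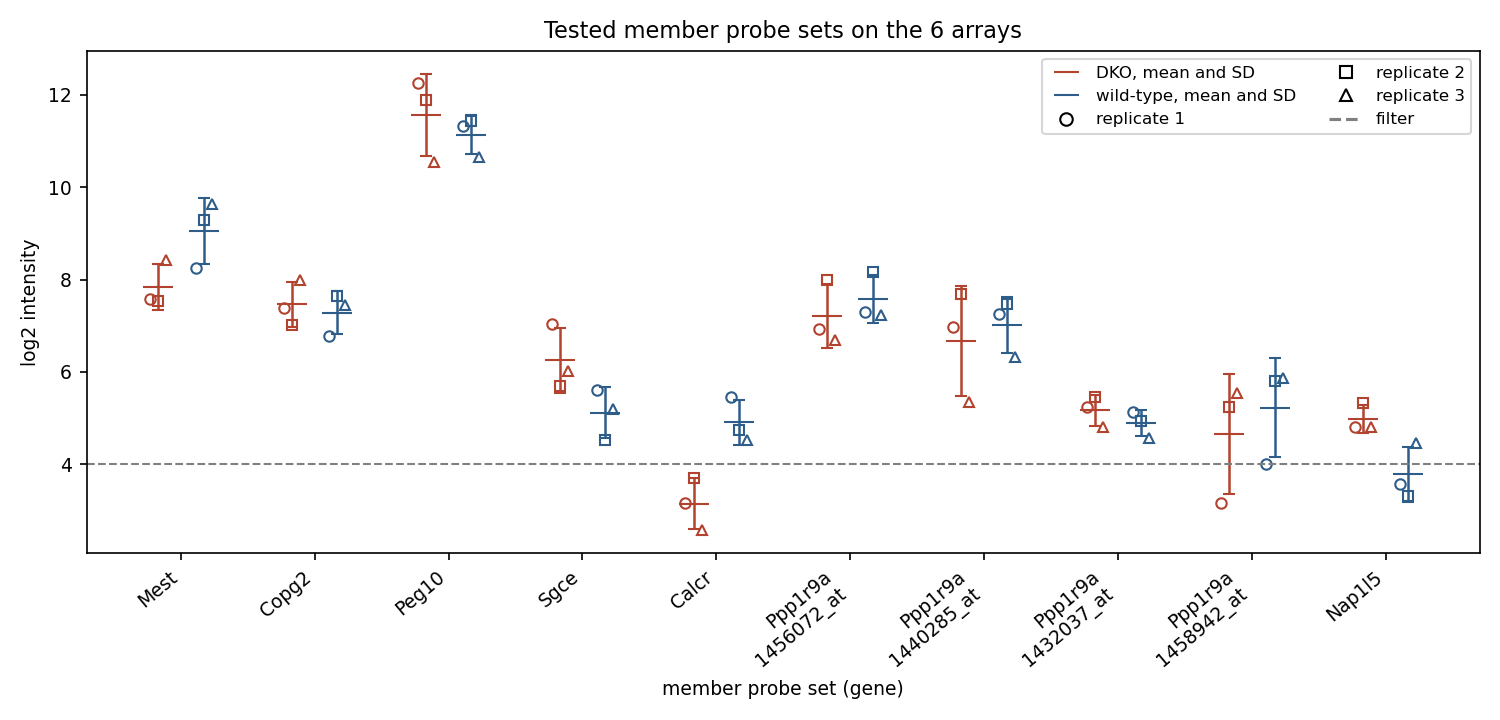
Log2 intensity of the 10 tested probe sets on each array, by gene, with DKO in red and wild-type in blue. Circles, squares and triangles are replicates 1, 2 and 3, bars give the mean and SD of 3 arrays, and the dashed line is the filter at 4: all 3 DKO arrays of Calcr lie under it and those of Sgce lie above all wild-type arrays.

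Mest encodes a hydrolase-fold enzyme known as mesoderm-specific transcript. Its probe set read 190, 185 and 343 in DKO and 305, 621 and 790 in wild-type cells (replicates 1, 2 and 3). The groups overlapped, since DKO replicate 3 lay above wild-type replicate 1, but replicate 3 was the highest array of each genotype, and within each number DKO was lower. The mean log2 intensities of DKO and wild-type cells were 7.84 ± 0.50 and 9.05 ± 0.71 (SD, n = 3), a difference of -1.21 (SE 0.40, 95% interval -2.11 to -0.31), or 2.32-fold lower. By limma this did not pass without a block (adjusted p = 0.193), and it passed with the replicate number as a block (adjusted p = 0.0129, interval -1.76 to -0.66) and with replicate 3 set apart (adjusted p = 0.0451). The same-numbered differences were -0.68, -1.75 and -1.20, so the fall was as large in replicate 3 as over replicates 1 and 2, which together gave -1.21. Replicate 3 stood above the mean of replicates 1 and 2 by 0.87 in DKO and by 0.86 in wild-type cells.

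Copg2, a gamma subunit of the COPI vesicle coat, lies tail to tail with Mest. It read 168, 130 and 252 in DKO and 109, 199 and 175 in wild-type cells, and the groups overlapped throughout. The log2 difference was 0.18 (SE 0.33, 95% interval -0.58 to 0.93, adjusted p = 0.911), higher in 2 of 3 pairs. The interval leaves room for a change of 1.91-fold up or to 0.67 of wild-type. Klf14, an intronless Krüppel-like factor gene beyond Copg2, read 10, 9 and 8 in DKO and 11, 15 and 11 in wild-type cells. All 6 values lie under the filter and were not tested, and no level can be ordered there.

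Peg10 derives from a retrotransposon, encodes proteins like viral Gag and Pol, and is needed for the placenta. It was bright on all arrays, at 4847, 3793 and 1500 in DKO and 2546, 2755 and 1619 in wild-type cells. Replicate 3 was the lowest array in both genotypes, and DKO was higher in replicates 1 and 2 and lower in replicate 3. The log2 means were 11.56 ± 0.89 and 11.13 ± 0.41 (SD, n = 3), with a difference of 0.43 (SE 0.44, 95% interval -0.56 to 1.41, adjusted p = 0.81). With the replicate block the interval was -0.12 to 0.97 (adjusted p = 0.355). Without DKO replicate 1 the difference was 0.09 and without DKO replicate 3 it was 0.93, and neither passed.

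Sgce encodes epsilon-sarcoglycan, a membrane glycoprotein of the dystrophin-associated complex, and starts head to head with Peg10. Its brighter probe set read 132, 52 and 65 in DKO and 49, 23 and 37 in wild-type cells. All DKO arrays lay above all wild-type arrays, the closest being 52 and 49, as in 7.57% of all tested probe sets. The genotypes were fully separated in 16.7% of them in either direction, with DKO lower in 9.17%. The log2 means were 6.26 ± 0.70 and 5.12 ± 0.55 (SD, n = 3), a difference of 1.14 (SE 0.40, 95% interval 0.22 to 2.06), or 2.2-fold. It did not pass by limma without a block (adjusted p = 0.238) or with replicate 3 set apart (adjusted p = 0.173), and it passed with the replicate number as a block (adjusted p = 0.00942). The pairs differed by 1.43, 1.18 and 0.81. The other probe set of Sgce read 3 to 6 on all arrays and was not tested.

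**Figure D3:**
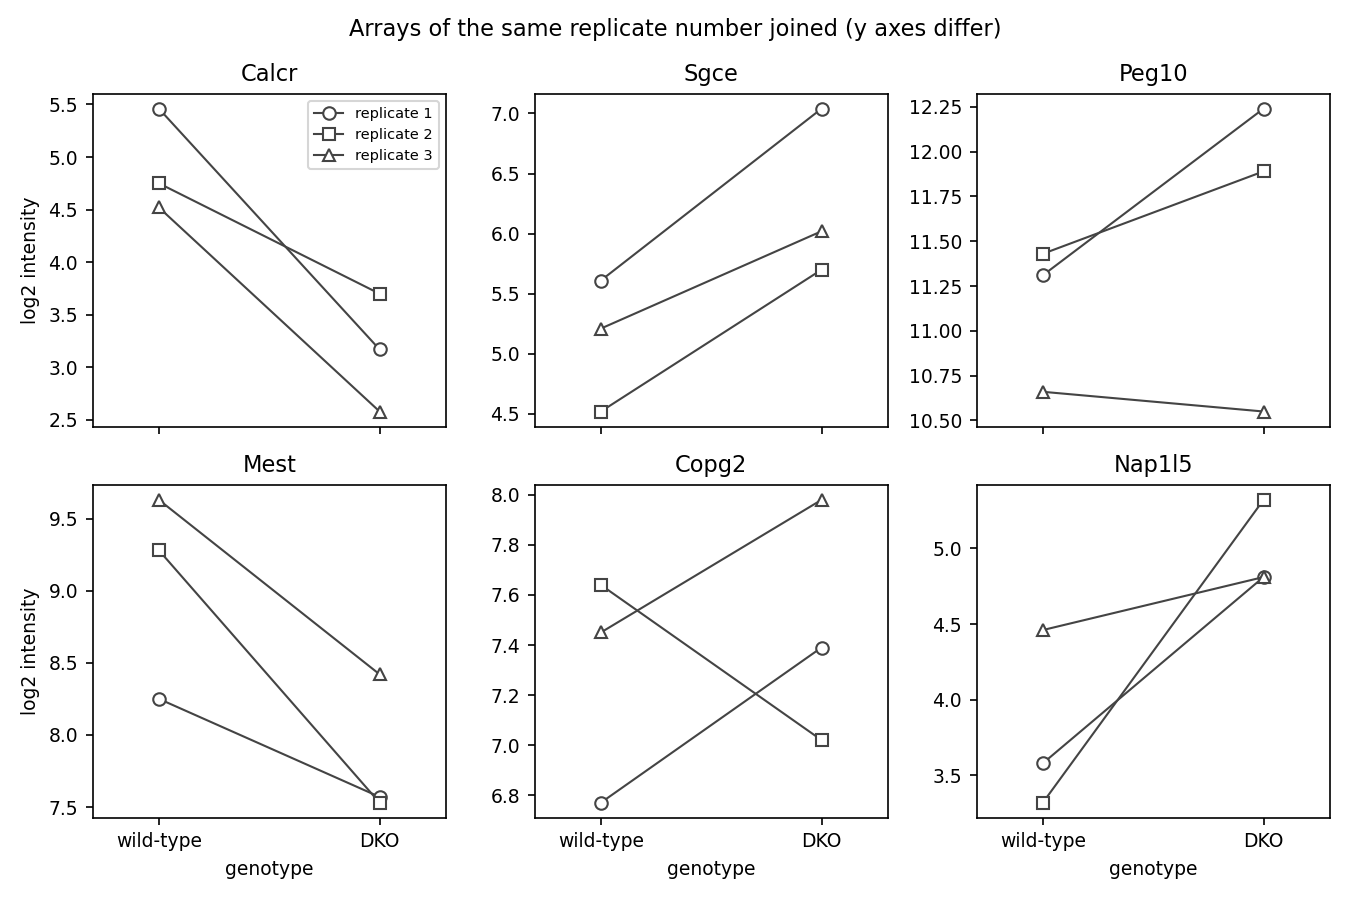
Log2 intensity of 6 genes, with lines joining wild-type and DKO arrays of the same replicate number; the y axes differ between panels. All 3 lines fall for Calcr and Mest and rise for Sgce and Nap1l5, while 2 of 3 rise for Peg10 and Copg2.

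Calcr, the calcitonin receptor, lies at the other end of the region, beyond Tfpi2. It read 9, 13 and 6 in DKO and 44, 27 and 23 in wild-type cells, so every DKO array was under the filter and every wild-type array above it. The fitted log2 difference was -1.76 (SE 0.36, adjusted p = 0.0319 by limma; 0.00251 with the replicate block). Since the DKO arrays were dim, the fold is given against the filter and was at least 1.88-fold lower. The call rested on single arrays: it held without DKO replicate 2 or wild-type replicate 3, and it was lost on leaving out any of the other 4 arrays (adjusted p up to 0.158, without DKO replicate 1). Genes of the calcitonin receptor family and its partners were listed as well. Of 4 tested of 8, 3 were lower in DKO, 0 were higher and 1 did not pass, where 4.13% of all 10496 genes passed and 2.5% were lower. Calcrl, a related receptor for adrenomedullin and CGRP, read 9, 24 and 11 in DKO and 85, 64 and 67 in wild-type cells, a log2 difference of -2.42 (adjusted p = 0.00848; 0.0631 without DKO replicate 1). Adm, the ligand adrenomedullin, fell by 2.17 (adjusted p = 0.0153; 0.0585 without DKO replicate 2). Ramp3, which partners both receptors at the cell surface, fell by 1.19 (adjusted p = 0.0430); with 1 array left out at a time it kept its call only without DKO replicate 3 (0.0493 to 0.147). Ramp2, a related partner, differed by -0.10 (adjusted p = 0.969). The median difference of these 4 genes was -1.68, and that of all genes -0.0025. Calcrl reached the filter on 1 DKO array and Ramp3 on 2, against 3 wild-type arrays each. Both met the filter only with their wild-type arrays, so the size of the Calcrl difference is not firm. The count and the median of this list describe these genes and support nothing further.

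Ppp1r9a encodes neurabin, which anchors protein phosphatase 1 to actin. It had 5 probe sets, of which 4 were tested, and they did not move together. The brightest read 122, 254 and 103 in DKO and 158, 288 and 151 in wild-type cells, lower in each pair but with overlapping groups, with a difference of -0.37 (SE 0.40, 95% interval -1.27 to 0.53, adjusted p = 0.822). The others gave -0.35, 0.28 and -0.57 (adjusted p = 0.893, 0.793 and 0.846). In each of the 4 tested probe sets the same replicate number was lowest in both genotypes, and most widely so in 2 of them. The probe set that read 126, 205 and 41 in DKO and 152, 179 and 80 in wild-type cells was lowest in replicate 3 of both genotypes, and the one that read 9, 38 and 47 in DKO and 16, 56 and 59 in wild-type cells was lowest in replicate 1 of both. The fifth probe set read 6 to 9 throughout.

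Tfpi2, a secreted inhibitor of serine proteases, and Asb4, an ankyrin-repeat protein with a SOCS box, were dim everywhere. Tfpi2 read 5, 4 and 7 in DKO and 15, 6 and 2 in wild-type cells. The brighter Asb4 probe set read 6, 9 and 4 in DKO and 11, 13 and 7 in wild-type cells, and the other 4 to 6 on all arrays. These genes were not tested, and a difference between them was not detectable at this signal.

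Nap1l5 is an intronless gene of the nucleosome assembly protein family that sits in an intron of Herc3. It read 28, 40 and 28 in DKO and 12, 10 and 22 in wild-type cells, with no overlap between the groups. Wild-type replicates 1 and 2 were under the filter and replicate 3 above it. The fitted log2 difference was 1.19 (SE 0.33, adjusted p = 0.118 by limma; 0.0344 with the replicate block), or 0.83 with the dim arrays set to the filter. The pairs differed by 1.22, 2.00 and 0.35, so the difference was smaller in replicate 3 than over replicates 1 and 2 (1.61, adjusted p = 0.0496). In those 4 arrays alone 2.11% of all tested probe sets passed, 0.873% higher and 1.24% lower. The differences in replicates 1 and 2 and the call from them rest on wild-type values under the filter, so their sizes are not firm. Of the 5 tested members of its family, Nap1l5 included, 0 passed without a block, where 4.13% of all genes passed. The differences of Nap1l1, Nap1l2, Nap1l3 and Nap1l4 lay between -0.16 and 0.25.

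**Figure D4:**
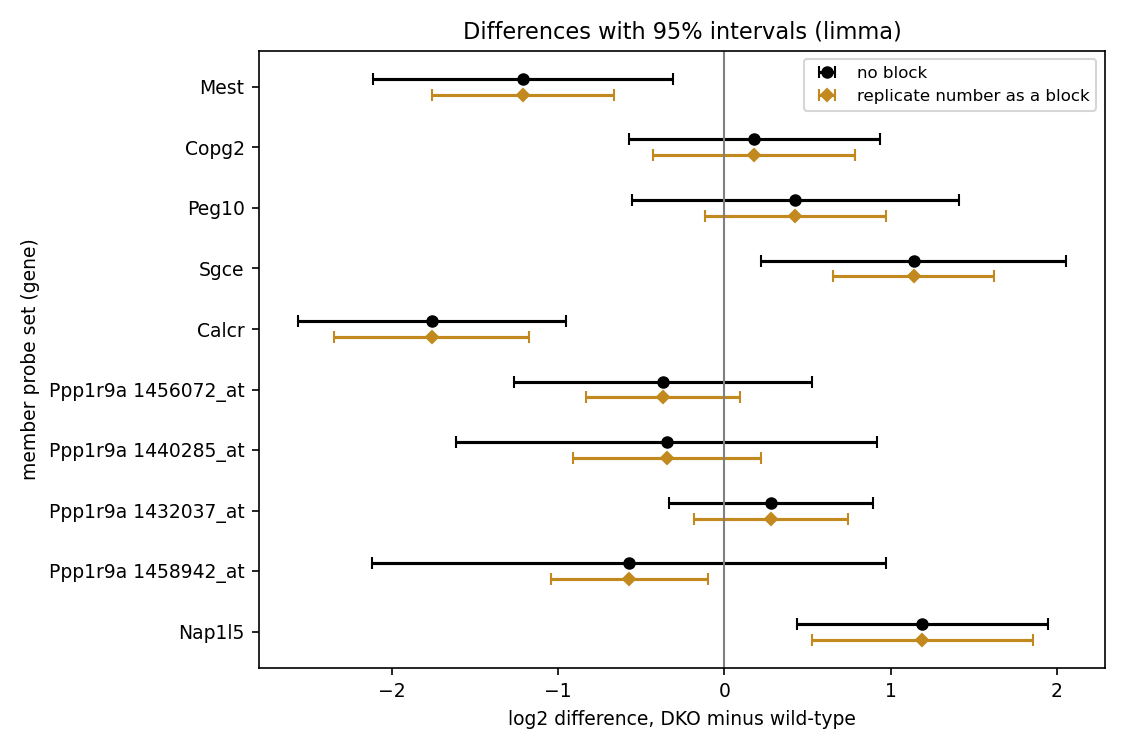
Log2 difference, DKO minus wild-type, of the 10 tested probe sets with 95% intervals from limma, without a block (black circles) and with the replicate number as a block (orange diamonds). With the block the intervals of Mest (-1.76 to -0.66) and Sgce (0.66 to 1.62) lie on opposite sides of 0, and that of Peg10 (-0.12 to 0.97) spans it.

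The genes next to these were read to see how far along the chromosome such differences ran. Of 40 listed neighbours on chromosome 6, 22 were tested, 1 was higher, 0 were lower and 21 did not pass, near the 4.13% of all genes that passed (1.64% higher, 2.5% lower). With the replicate block 1 was higher and 2 were lower, Casd1 and Abcg2 (-0.75, adjusted p = 0.0449), where 10.7% of all genes passed. The list had a median of -0.05 against -0.0025 over all genes. Around Mest and Copg2 the 8 tested neighbours, among them Cep41 next to Mest, differed by -0.22 to 0.22. Around Peg10 and Sgce the 7 tested neighbours differed by -1.02 to 0.75. Casd1, the neighbour of Sgce and an enzyme that acetylates sialic acids, read 142, 264 and 143 in DKO and 380, 359 and 327 in wild-type cells, opposite in direction to Sgce, with a difference of -1.02 (adjusted p = 0.129; 0.0279 with the replicate block). Near Nap1l5, Tigd2, a transposase-derived gene, was the neighbour that passed: it read 411, 469 and 343 in DKO and 218, 154 and 180 in wild-type cells (difference 1.15, adjusted p = 0.0435; 0.0112 with the replicate block). With 1 array left out at a time, limma called Tigd2 in 0 of 6 fits (adjusted p = 0.058 to 0.207). Herc3, the host gene of Nap1l5, differed by -0.37 (adjusted p = 0.74).

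**Figure D5:**
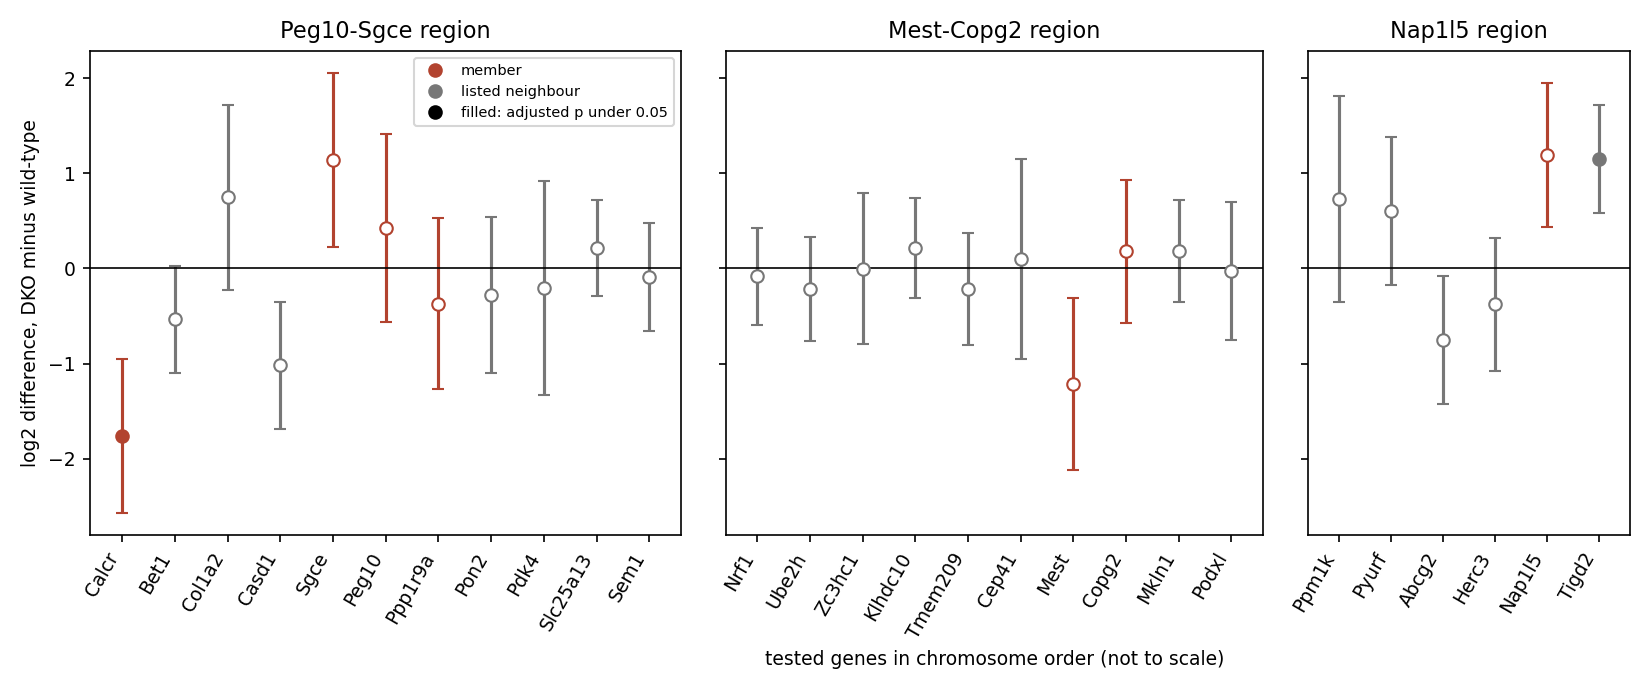
Log2 difference, DKO minus wild-type, with 95% intervals from limma for tested genes in chromosome order (not to scale) in the 3 regions; red marks the genes described here, grey their listed neighbours, and filled points an adjusted p under 0.05. Calcr at the left end and Tigd2 at the right end are the filled points, and the neighbours of Mest lie between -0.22 and 0.22.

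Imprinted genes elsewhere in the genome were read beside them, where 4.13% of all genes passed, 1.64% higher and 2.5% lower. Of 19 tested paternally expressed ones 1 was higher (Plagl1, 1.10, adjusted p = 0.0405), 3 were lower (Nnat, Igf2 and Peg3, -2.69 to -1.81) and 15 did not pass. With the replicate block 3 were higher and 4 were lower, where 10.7% of all genes passed. By limma with that block Dlk1 (1.15, adjusted p = 0.0327) and Kcnq1ot1 (1.04, 0.0375) joined as higher and Snrpn (-0.76, 0.0438) as lower. With 1 array left out at a time, Nnat and Peg3 kept their calls in all 6 fits, Plagl1 in none (adjusted p up to 0.169), and Igf2 only without wild-type replicate 2 (up to 0.137). These values are for the brightest probe set of each gene. The mean over the tested probe sets of Plagl1 differed by more, 2.55 (limma on all 6 arrays, adjusted p = 0.0013). Of 15 tested maternally expressed ones 4 were lower (Phlda2, Cdkn1c, Atp10a and Grb10, -2.93 to -1.83, each called in all 6 such fits), 0 were higher and 11 did not pass. Cdkn1c read 11, 7 and 6 in DKO and 62, 62 and 37 in wild-type cells. Its DKO arrays were all under the filter, so it was tested only because of its wild-type arrays and the size of its difference is not firm. Among 19 tested genes of imprint maintenance and DNA methylation, Dnmt3a, a de novo methyltransferase, fell by 1.67 (adjusted p = 0.0142; lost without DKO replicate 1 or wild-type replicate 2, with an adjusted p up to 0.0709), 0 were higher and 18 did not pass. With the replicate block 2 genes of this list were lower, Dnmt3a and Dppa3, and 0 were higher, where 10.7% of all genes passed. Dppa3 read 34, 21 and 13 in DKO and 86, 48 and 36 in wild-type cells, with no overlap. Its difference was -1.33 (limma, adjusted p = 0.171; 0.00297 with the replicate block). Zfp57 differed by 0.21 (adjusted p = 0.836).

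Markers of other cell types were read because several of these genes are known from placenta, mesoderm or brain. Of 10 trophoblast markers 4 were under the filter on all arrays (Elf5, Hand1, Plac1 and Tpbpa), and the summed intensity was 2599 to 5325 in DKO and 3331 to 3988 in wild-type cells. These overlapping sums hold markers that moved apart. Cdx2, a trophoblast and gut transcription factor, read 1307, 2073 and 1920 in DKO and 99, 104 and 103 in wild-type cells (log2 difference 4.09, adjusted p = 9.7e-05). Eomes read 235, 189 and 291 against 135, 68 and 106 (1.24, adjusted p = 0.0787, and 0.00734 with the replicate block). Tfap2c read 1011, 1868 and 3069 against 3208, 3108 and 3709 (-0.89, adjusted p = 0.354). The mean over the tested probe sets of a gene gave -1.08 for Tfap2c (limma, adjusted p = 0.0392) and 1.34 for Eomes (0.0685). Of 10 fibroblast markers 3 were under the filter (Col3a1, Lum and Postn), with sums of 5582 to 7630 and 5553 to 7253. Vim gave most of these sums, and 0 of the 6 tested passed, where 4.13% of all genes passed. Col1a1 read 105, 73 and 76 against 316, 135 and 221 (limma, -1.34, adjusted p = 0.0805, and 0.00506 with the replicate block). Col1a2, Thy1 and Pdgfra differed by 0.75, 0.44 and 0.62 with overlap. Of 8 mesoderm and muscle markers 4 were under the filter (Hand1, Mesp1, Myod1 and Tbx6), with sums of 98 to 194 and 94 to 164. Of 10 endoderm markers 2 were under the filter (Afp and Ttr), with sums of 3004 to 5538 and 1393 to 4429. Here 0 of the 8 tested passed, near the 4.13% of all genes. Gata6 and Foxa2 differed by 1.05 and 1.26 but Dab2 and Amn by -1.45 and -0.75. The sum of 6 neural markers was lower in DKO, at 114 to 353 against 394 to 633, with Neurog2 under the filter. Pax6 in that list read 19, 10 and 21 in DKO and 191, 140 and 203 in wild-type cells (-3.47, adjusted p = 0.000826). Of the 5 tested it alone passed without a block. With the replicate block 4 were lower, Pax6, Nes, Map2 and Tubb3, where 10.7% of all genes passed. Pax6, Nes and Map2 met the filter only with their wild-type arrays. Of 6 blood markers 4 were under the filter (Hba-x, Hbb-bh1, Ptprc and Tal1), with sums of 89 to 111 and 91 to 108. The part of such cells in the differences of the 10 genes was not tested.

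The genes whose pattern over the 6 arrays was most like that of Mest were Tatdn1 (Pearson's r = 0.997), Garre1 (0.989) and Pum3 (0.988), and those most like Peg10 were H13 (0.998), Dbi (0.992) and Mcph1 (0.992). Tatdn1 was dim, at 13, 13 and 17 in DKO and 16, 23 and 24 in wild-type cells, so its pattern is coarse. The correlations are descriptions over 6 arrays that share genotype, line and replicate number. They are the highest among tested genes with single-gene probe sets, with clone-named and predicted genes left out.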

How the data were processed

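Titles gave the genotype and replicate number of all 6 arrays. The deposited values are 1 whole-number intensity per probe set and array, normalized by the authors, on an unstated scale. Treating them as linear, log2 was taken without a pseudocount. Tools in the submitters' processing notes are GCRMA 2.14.1, limma 2.16.5, R 2.8.0 and GCOS, listed without their order. A genome build was not given in the sources used here. The rounding makes low values coarse, and the table has no detection flags. Gene names come from the annotation of the platform, updated through RefSeq (GRCm38.p6); 34754 of 34958 single-gene probe sets matched.

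The genotypes were compared with limma 3.58.1 under R 4.3.3 (lmFit, eBayes, two-sided, Benjamini-Hochberg over 20841 probe sets, control probe sets left out). A gene in a list stands for its brightest tested probe set. The procedure was tested on simulated data. After subtracting genotype means, the arrays numbered 1, 2 and 3 correlated across genotypes at 0.427, 0.354 and 0.595, each over 0.1, so the numbers were taken to pair the arrays, although the labels do not say what they stand for. DKO replicate 2 and wild-type replicate 1 also correlated, at 0.113.

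The genes, lists and rules were chosen with earlier results of these data known. Named are all 10 genes, list members that passed (at most 4 a list), and the 3 genes most alike to Mest and to Peg10. Casd1, Abcg2, Herc3, Cep41, Eomes, Tfap2c, Ramp2, Zfp57 and the other Nap1l genes fall outside this rule and were named after their values were seen. The same holds for the fibroblast markers Vim, Col1a1, Col1a2, Thy1 and Pdgfra and the endoderm markers Gata6, Foxa2, Dab2 and Amn. Dppa3, Dlk1, Kcnq1ot1, Snrpn and the neural markers Nes, Map2 and Tubb3 were also named after their values were seen. Alternatives changed the block, arrays, filter, normalization, pseudocount, variance model and probe sets per gene.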

Additional observations from a re-analysis of the deposited data

How the results depend on the processing

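Without a block limma called 675 probe sets and 434 genes, and 1 probe set of the 10 genes. With the replicate number as a block, which pairs the arrays, these were 1995, 1123 and 4, and with replicate 3 set apart as a block 1117, 687 and 2. Replicates 1 and 2 alone gave 440 probe sets, and 1 probe set of the 10 genes, that of Nap1l5. A filter at a log2 value of 6 gave 373, 253 and 0, with fewer probe sets tested and Calcr not among them. Without moderation the counts were 31, 22 and 0. No filter gave 247 genes and 0 probe sets of the 10 genes, and a pseudocount of 16 gave 0; Calcr then had an adjusted p of 0.201 and 0.0987. The causes were not tested. The 6 fits that left out an array gave 290 to 604 probe sets, 184 to 373 genes and 0 to 2 probe sets of the 10 genes, and the lowest counts of probe sets were 290 without DKO replicate 1, 319 without wild-type replicate 2 and 381 without DKO replicate 2. In those fits 56 of 60 differences kept their direction. Copg2 ran from -0.080 (without wild-type replicate 1) and -0.078 (without DKO replicate 3) to 0.40, and 2 probe sets of Ppp1r9a ran from -0.85 to 0.31 and from -1.19 to 0.17. Mest passed without wild-type replicate 1 (adjusted p = 0.0489), Nap1l5 without wild-type replicate 3 (0.0312), and Sgce in none (0.162 to 0.693). In the other alternatives all 101 differences of the 10 genes kept their direction. The blocks, the filters, the variance model and the fit without moderation leave a fitted difference unchanged, so this count was largely fixed in advance. The replicate block changed the call of Mest, Sgce and Nap1l5 and of no other tested probe set of the 10 genes. Values under an intensity of 16 are the limit of what can be ordered here. This covers all of Klf14, Tfpi2 and Asb4, the DKO arrays of Calcr, and wild-type replicates 1 and 2 of Nap1l5. It also covers DKO replicate 1 of 1 tested Ppp1r9a probe set and the untested probe sets of Sgce and Ppp1r9a.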

Other observations

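Relatives of Peg10 and Klf14 differed in opposite directions among themselves. Of 7 tested genes derived from retrotransposon gag sequences other than Peg10, 1 was higher, 1 was lower and 5 did not pass, where 4.13% of all genes passed. Pnma5 read 1253, 961 and 733 in DKO and 362, 259 and 151 in wild-type cells, a log2 difference of 1.99 (limma, adjusted p = 0.0190; 0.125 without DKO replicate 1). Pnma2, a paraneoplastic antigen gene of the same family, fell by 1.31 (adjusted p = 0.0170). Of 13 tested Krüppel-like factor genes other than Klf14, 1 was higher, 1 was lower and 11 did not pass. Klf7 read 124, 83 and 178 in DKO and 402, 487 and 585 in wild-type cells, a difference of -1.99 (adjusted p = 0.0112), and Klf15 read 43, 46 and 43 against 17, 14 and 22, a difference of 1.34 (adjusted p = 0.0218). With 1 array left out at a time, Klf7 lost its call without DKO replicate 1 or wild-type replicate 2 and Pnma5 without these or DKO replicate 2. Pnma2 kept its call without DKO replicate 3 or wild-type replicate 1, and Klf15 without wild-type replicate 3, each in none of the others.

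The other companions of the 10 genes formed short lists, with counts of calls near the share over all genes. That share was 4.13% by limma without a block and 10.7% with the replicate block. By limma 0 of the 9 tested COPI coat genes, 0 of the 7 sarcoglycan and dystroglycan complex genes and 0 of the 4 Cullin-5 partners of Asb4 passed, also with the replicate block except for 1 lower gene of the sarcoglycan list.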
